A study of Mus musculus with 8 samples.

Results

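Actin genes and genes of actin-binding proteins were described probe by probe on 8 Illumina bead arrays of mouse bone marrow-derived macrophages. The list held 10 genes, namely Actb, Actg1, Actn1, Actn4, Cfl1, Pfn1, Tmsb4x, Tmsb10, Coro1a and Vim, of the 18138 gene symbols in the deposited table, and every row of the table that carried one of these symbols was taken. Rows were found for 9 of the 10 genes, 21 of 25697 rows in all. No row carried Actg1 by symbol, Entrez identifier or RefSeq accession, so this cytoplasmic actin is not analysed here. All 21 probes had a detection p-value under 0.05 on all 8 arrays, and none was lost to the filter on dim probes. The list was drawn up with the intensities of these same arrays known, among them a disagreement between the Actb probes, and its values over the groups are therefore given as a description, without p-values.

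Total RNA came from macrophages of 8-week-old female mice given as C57bl/6J, either wild type (WT) or deficient in inducible nitric oxide synthase (iNOS-/-). The paper lists the iNOS-deficient mice as a separate line, B6.129P2-Nos2tm1Lau/J. Other differences between the lines were not tested. Bone marrow of every group had been cultured with GM-CSF at 10 ng/ml for 7 days. M1 macrophages had in addition received LPS at 200 ng/ml and IFN-γ at 10 ng/ml for 6 h, and unstimulated cells had not. Each of the 4 groups had 2 arrays, and nothing in the labels says whether these came from separate mice, so the spread between them may be technical. The study asked how loss of iNOS changes M1 differentiation. The probe of Nos2, which encodes iNOS, was not detected on any unstimulated array and lay at log2 intensities of 7.47 and 7.05 on the WT M1 arrays and 7.49 and 7.67 on the arrays labelled iNOS-/- M1. The Nos2 probe was thus not lower on the latter, and where it lies relative to the disrupted part of the gene is not given in the sources used here. On Western blots the paper found iNOS protein in stimulated WT macrophages and none in iNOS-/- ones. Those blots measured protein rather than RNA, after a longer stimulation than on these arrays. Every direction between genotypes below rests on the labels. From 46.0% to 49.3% of the probes were detected per array, and the median difference between the 2 arrays of a group was 0.117 to 0.135 on the log2 scale over 9687 probes.

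Actin monomers assemble into polar filaments that carry the shape, crawling and phagocytosis of macrophages. Profilin delivers monomers to growing ends, thymosins hold monomers in reserve, and cofilin severs old filaments, so that these proteins together set how quickly filaments turn over. Alpha-actinins tie filaments into bundles, coronin 1A binds filaments in leukocytes, and vimentin forms a separate network of intermediate filaments.

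The Actb probes are shown first because they did not move together. Each probe is a strand of 50 bases. Of the probes outside the coding sequence only the first 30 bases are shown. In the probe that starts at base 1173 of the transcript the capitals mark the stop codon, found by a search for the codons that end the actin protein. In the probes that start at bases 1408 and 1412, which share a run of 49 bases, the capitals mark the shared run. Transcript positions are those given in the file, for the transcript record named there for each probe.
Actb ILMN_2617433: tccacccgcgagcacagcttctttgcagct
Actb ILMN_2698799: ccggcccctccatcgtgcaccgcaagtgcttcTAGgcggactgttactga
Actb ILMN_2588055: cGGTGAAGGCGACAGCAGTTGGTTGGAGCA
Actb ILMN_2846865: GGTGAAGGCGACAGCAGTTGGTTGGAGCAA
Actb ILMN_1377923: tcgcgtccatgccctgagtccaccccgggg
The first and the last of the 4 Coro1a probes along the transcript, at bases 340 and 1390, are shown whole. They stand far apart and were nonetheless both lowest in WT unstimulated cells.
Coro1a ILMN_2733793: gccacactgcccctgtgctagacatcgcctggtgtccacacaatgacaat
Coro1a ILMN_2714796: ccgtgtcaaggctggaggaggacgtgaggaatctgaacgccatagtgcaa
No row of another gene symbol in the table shared a run of 20 bases with any of the 21 probes. Whether the probes also match transcripts outside the table, such as those of Actg1 or of actin pseudogenes, was not tested. The file places Actb on chromosome 5 and Coro1a on chromosome 7, and since it names no genome build, no position is given.

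Actb, the gene of the cytoplasmic beta-actin, had 5 probes, and 3 of them were bright. Intensities are given on the log2 scale after rank-invariant scaling between arrays, and differences are given with the standard error of the limma fit (SE, n = 2 arrays a group). The probe at base 14 measured 11.48 and 11.40 on the WT unstimulated arrays, 12.41 and 12.60 on the WT M1 arrays, 12.65 and 12.81 on the iNOS-/- unstimulated arrays, and 13.75 and 13.78 on the iNOS-/- M1 arrays. It was lowest in WT unstimulated cells and highest in iNOS-/- M1 cells, with no overlap between any of the groups. M1 stimulation went with a difference of 1.06 ± 0.11 in WT and of 1.04 ± 0.11 in iNOS-/- cells, and iNOS-/- cells stood above WT by 1.28 ± 0.11 before and by 1.26 ± 0.11 after stimulation. After rank-invariant scaling this probe therefore differed by about the same amount along both axes of the design, which did not hold under all scalings (below).

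The probe over the stop codon, at base 1173, measured 12.93 and 12.99 in WT unstimulated, 13.75 and 13.90 in WT M1, 13.75 and 13.62 in iNOS-/- unstimulated and 14.24 and 14.32 in iNOS-/- M1 cells. Its order was the same at both ends, while the WT M1 and iNOS-/- unstimulated arrays could not be separated beyond their spread. The probe at base 1610 measured 10.08 and 10.13, 11.97 and 12.06, 10.86 and 10.84, and 11.76 and 11.89 in the same order of groups. Its stimulated difference in WT cells, 1.91 ± 0.09, was larger than those of the other bright probes, 1.06 ± 0.11 and 0.87 ± 0.10. In contrast to them, it lay lower in iNOS-/- M1 than in WT M1 cells, by -0.19 ± 0.09.

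The pair of overlapping probes at bases 1408 and 1412 was dim. ILMN_2588055 measured 5.83 and 5.74 in WT unstimulated, 7.11 and 7.19 in WT M1, 3.76 and 3.89 in iNOS-/- unstimulated and 2.94 and 3.26 in iNOS-/- M1 cells. ILMN_2846865 measured 5.77 and 5.84, 7.26 and 7.51, 3.91 and 4.53, and 3.61 and 4.01 in the same order. Both probes followed the bright ones upwards in WT cells, with stimulated differences of 1.36 ± 0.13 and 1.58 ± 0.25, but all 4 iNOS-/- arrays lay below all 4 WT arrays. The difference between unstimulated iNOS-/- and WT cells was -1.96 ± 0.13 and -1.58 ± 0.25, and that between the M1 groups -4.05 ± 0.13 and -3.58 ± 0.25, which came to -2.66 and -2.56 after neqc, a background correction followed by quantile normalization. The deposited intensities of ILMN_2588055 were 118.0 and 111.8 on the WT M1 arrays and 7.0 and 8.0 on the iNOS-/- M1 arrays. Its highest detection p-value over the 8 arrays was 0.0464, close to the threshold, so its lowest values stood barely above background. The pair shares 49 bases and is not counted as 2 independent readings.

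**Figure D1:**
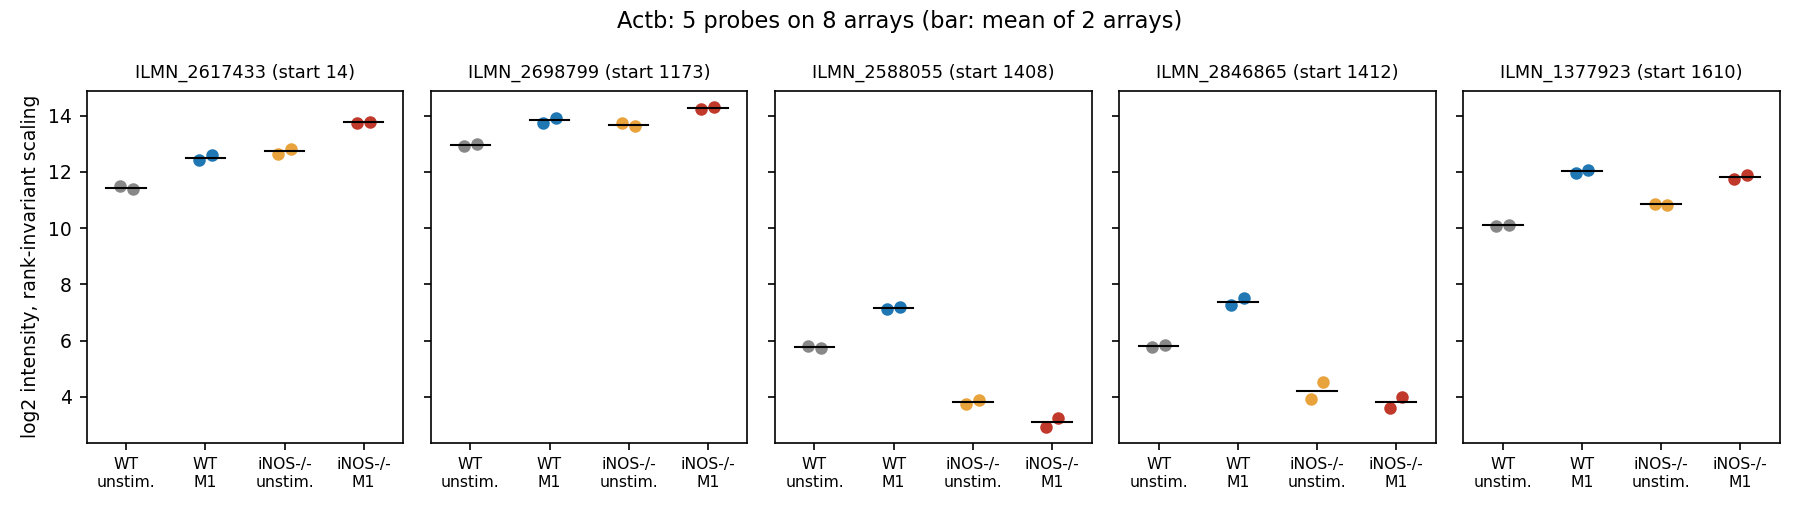
Log2 intensity (vertical axis, rank-invariant scaling) of the 5 Actb probes, 1 panel each, on the 2 arrays (points) of each of the 4 groups, with the group mean as a bar. The probes at bases 14 and 1173 are highest in iNOS-/- M1 cells, at 13.75 to 13.78 and at 14.24 to 14.32, whereas the overlapping probes at bases 1408 and 1412 are lowest there, at 2.94 to 3.26 and at 3.61 to 4.01.

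Because rank-invariant scaling multiplies all probes of an array by the same factor, the ratio of 2 Actb probes on the same array does not depend on it, although for a dim probe it depends on the background. Only the change of a ratio between arrays can be read, since probes differ in brightness. The log2 ratio of ILMN_2846865 to ILMN_2698799 was -7.16 and -7.15 in WT unstimulated, -6.49 and -6.40 in WT M1, -9.83 and -9.09 in iNOS-/- unstimulated and -10.63 and -10.32 in iNOS-/- M1 cells. Hence the dim probe lost ground against the bright one on every iNOS-/- array. The log2 ratio of ILMN_1377923 to ILMN_2698799 was -2.85 and -2.86 in WT unstimulated cells, -1.78 and -1.84 in WT M1 cells, -2.89 and -2.79 in iNOS-/- unstimulated cells and -2.48 and -2.44 in iNOS-/- M1 cells. It was thus highest in WT M1 cells, so even among the bright probes the change was unequal. Over the 8 arrays Pearson's r was 0.96 between ILMN_2617433 and ILMN_2698799, 0.99 between the overlapping probes, and -0.65 between ILMN_2617433 and ILMN_2588055. These correlations describe 8 arrays that fall into 4 groups.

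**Figure D2:**
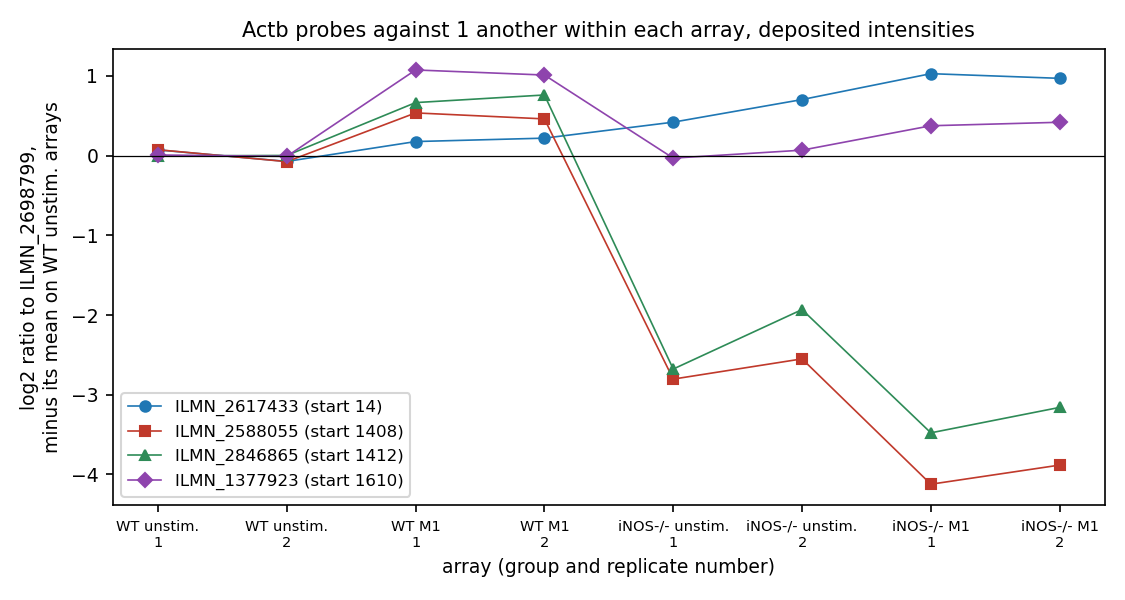
Log2 ratio of 4 Actb probes to ILMN_2698799 on each array (horizontal axis), from the deposited intensities and set to 0 at its mean over the WT unstimulated arrays (vertical axis). The lines of the overlapping probes at bases 1408 and 1412 drop on all 4 iNOS-/- arrays, while the other lines stay near or above 0.

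Directions of the Actb probes were compared under 5 scalings, namely rank-invariant, the same with an intercept, quantile, neqc and none. In WT cells the stimulated difference was positive for 5 of 5 probes under each of them. Between unstimulated groups the bright probes were higher and the dim pair lower in iNOS-/- cells under each, and between M1 groups the probes at bases 14 and 1173 were higher and the other 3 lower under each. Sizes were less stable in iNOS-/- cells, where the stimulated difference of ILMN_2698799 was 0.60 after rank-invariant scaling and 0.08 after quantile normalization. That of ILMN_2617433 was 1.04 after rank-invariant scaling and 0.46 after neqc, and its difference between M1 groups went from 1.26 to 0.76. Without scaling its stimulated difference in WT cells was 0.58. In iNOS-/- cells the stimulated difference of ILMN_2588055 was -0.73 but 0 with a floor of 16 in place of 1, because all 4 values then lay at the floor.

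Cofilin 1, encoded by Cfl1, severs filaments. Its probe measured 7.00 and 7.05 in WT unstimulated, 7.78 and 7.83 in WT M1, 7.66 and 7.84 in iNOS-/- unstimulated and 8.09 and 8.26 in iNOS-/- M1 cells. It was lowest in WT unstimulated and highest in iNOS-/- M1 cells, and the groups between them overlapped. The stimulated difference was 0.78 ± 0.11 in WT cells and positive under each scaling, and 0.43 ± 0.11 in iNOS-/- cells, turning to -0.036 without scaling. iNOS-/- cells lay above WT by 0.72 ± 0.11 before and by 0.37 ± 0.11 after stimulation, under each scaling.

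Profilin 1, encoded by Pfn1, adds monomers to growing ends and had 2 probes. ILMN_2673211 measured 11.10 and 11.06 in WT unstimulated, 11.64 and 11.76 in WT M1, 11.34 and 11.31 in iNOS-/- unstimulated and 11.98 and 12.01 in iNOS-/- M1 cells. ILMN_2863965 measured 10.84 and 10.85, 11.71 and 11.67, 11.31 and 11.17, and 11.66 and 11.54 in the same order. Both were lowest in WT unstimulated cells and both were higher in WT M1 cells, by 0.62 ± 0.08 and 0.84 ± 0.09, whichever scaling was used. They parted between the M1 groups, where the first was higher in iNOS-/- cells by 0.29 ± 0.08 and the second differed by -0.09 ± 0.09, and neither sign held under all scalings: quantile normalization gave -0.16 for the first, and no scaling gave 0.012 for the second.

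The thymosins beta 4 and beta 10, encoded by Tmsb4x and Tmsb10, bind actin monomers and keep them from polymerizing. The Tmsb4x probe measured 13.58 and 13.52 in WT unstimulated, 13.20 and 13.31 in WT M1, 13.54 and 13.49 in iNOS-/- unstimulated and 14.04 and 14.08 in iNOS-/- M1 cells. The unstimulated groups overlapped, and after stimulation the genotypes moved apart, with -0.29 ± 0.08 in WT and 0.54 ± 0.08 in iNOS-/- cells. The M1 groups accordingly differed by 0.80 ± 0.08. All 3 of these differences kept their sign under each scaling, while their sizes ranged from 0.07 to 0.54 for the difference in iNOS-/- cells and from 0.45 to 0.91 for that between M1 groups.

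Tmsb10 had 3 probes. ILMN_3067068 measured 13.64 and 13.54 in WT unstimulated, 13.41 and 13.68 in WT M1, 12.96 and 12.96 in iNOS-/- unstimulated and 13.65 and 13.69 in iNOS-/- M1 cells. ILMN_1225332 measured 6.88 and 7.18, 7.22 and 7.16, 6.39 and 6.15, and 6.80 and 6.87, and ILMN_3145331 measured 11.65 and 11.62, 12.01 and 11.98, 11.04 and 11.29, and 11.74 and 11.77. On all 3 probes the iNOS-/- unstimulated arrays were the lowest. They lay below WT unstimulated cells by -0.63 ± 0.12, -0.75 ± 0.14 and -0.47 ± 0.11 and under each scaling. The probe types in the file differ, with 1 probe marked as isoform-specific (I), 1 as single-transcript (S) and 1 as common to all transcripts (A). In iNOS-/- cells the stimulated differences were 0.71 ± 0.12, 0.56 ± 0.14 and 0.59 ± 0.11, of which the last turned to -0.027 after neqc or quantile normalization.

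Alpha-actinins crosslink filaments. The Actn1 probe measured 10.48 and 10.46 in WT unstimulated, 11.40 and 11.45 in WT M1, 11.01 and 11.05 in iNOS-/- unstimulated and 11.98 and 12.17 in iNOS-/- M1 cells. None of the groups overlapped. The stimulated difference was 0.95 ± 0.10 in WT and 1.04 ± 0.10 in iNOS-/- cells, and iNOS-/- cells lay above WT by 0.56 ± 0.10 before and 0.65 ± 0.10 after stimulation. All 4 differences were positive under each scaling, although the latter shrank to 0.15 after quantile normalization.

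Actn4, the other alpha-actinin of non-muscle cells, had 3 probes. ILMN_2673599 measured 8.60 and 8.38 in WT unstimulated, 8.94 and 8.88 in WT M1, 8.28 and 8.36 in iNOS-/- unstimulated and 7.85 and 8.22 in iNOS-/- M1 cells. ILMN_2672767 measured 8.00 and 8.03, 8.40 and 8.38, 7.92 and 7.81, and 7.62 and 7.93. On both, the WT M1 arrays were the highest. The dimmer ILMN_1242390 measured 6.01 and 5.59, 5.46 and 5.80, 5.27 and 5.22, and 5.11 and 5.48, so that its WT groups overlapped, as did its M1 groups. Between the M1 groups all 3 probes were lower in iNOS-/- cells under each scaling, by -0.88 ± 0.15, -0.62 ± 0.13 and -0.34 ± 0.22. In WT cells the stimulated differences of 0.42 ± 0.15 and 0.38 ± 0.13 on the brighter probes turned to -0.056 and -0.10 without scaling. Actn1 and Actn4 thus lay on opposite sides of WT in iNOS-/- M1 cells.

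Coronin 1A, the coronin of leukocytes, was read by 4 probes that ran closely together over the 8 arrays. ILMN_2733793 measured 8.51 and 8.29 in WT unstimulated, 10.36 and 10.45 in WT M1, 10.84 and 10.70 in iNOS-/- unstimulated and 10.49 and 10.57 in iNOS-/- M1 cells. ILMN_2787257 measured 9.51 and 9.45, 11.47 and 11.64, 11.81 and 11.87, and 11.60 and 11.75. The WT unstimulated arrays stood alone at the bottom, and after rank-invariant scaling the other 3 groups lay closer to each other than to them. ILMN_2747060 measured 7.26 and 7.44, 9.42 and 9.46, 9.84 and 9.61, and 9.50 and 9.37, and ILMN_2714796 measured 10.62 and 10.77, 12.28 and 12.49, 12.56 and 12.41, and 12.52 and 12.55. Pairwise, Pearson's r between the 4 probes was 0.986 to 0.997 over the 8 arrays, which share their groups.

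Stimulation of WT cells went with Coro1a differences of 2.01 ± 0.11, 2.07 ± 0.10, 2.09 ± 0.12 and 1.69 ± 0.12 on the probes in order along the transcript. Unstimulated iNOS-/- cells stood above unstimulated WT cells by 2.37 ± 0.11, 2.36 ± 0.10, 2.38 ± 0.12 and 1.79 ± 0.12, that is 3.47-fold to 5.19-fold. Both sets were positive under each scaling. In iNOS-/- cells stimulation went with -0.23 ± 0.11, -0.16 ± 0.10, -0.29 ± 0.12 and 0.05 ± 0.12, of which the first 3 were negative under each scaling. After neqc these 4 differences were larger in size, at -0.75, -0.74, -0.62 and -0.60. Between the M1 groups the differences lay between -0.0033 and 0.15 after rank-invariant scaling and between -0.34 and -0.21 after quantile normalization.

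Vimentin, encoded by Vim, forms intermediate filaments. Its probe measured 11.66 and 11.68 in WT unstimulated, 11.98 and 11.93 in WT M1, 11.80 and 11.89 in iNOS-/- unstimulated and 11.92 and 11.97 in iNOS-/- M1 cells. After rank-invariant scaling the 2 M1 groups overlapped. The stimulated difference in WT cells was 0.29 ± 0.08 and turned to -0.19 without scaling, where the median of all probes was -0.38. In iNOS-/- cells the stimulated difference was 0.10 ± 0.08 and turned to -0.51 after neqc or quantile normalization, and that between M1 groups went from -0.012 to -0.47.

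**Figure D3:**
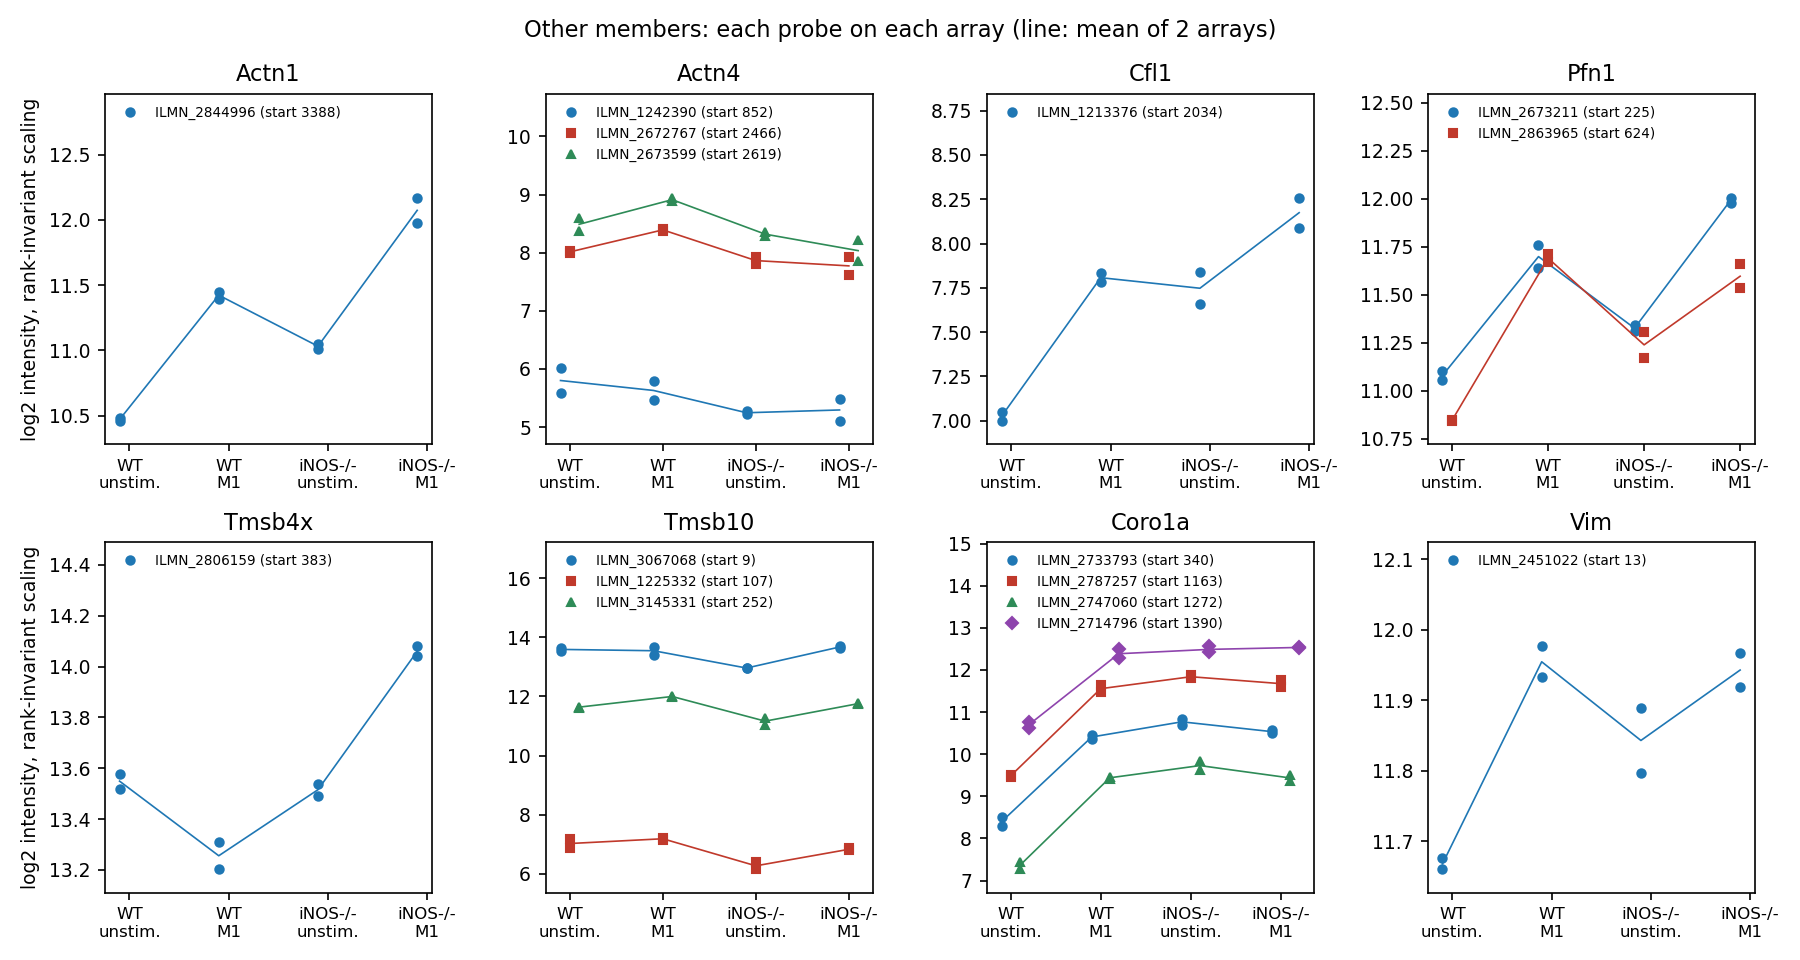
Log2 intensity (vertical axis, rank-invariant scaling, own range in each panel) of the probes of the other 8 genes on the 2 arrays of each group, with lines through the group means. Coro1a stands apart by its low WT unstimulated arrays on all 4 probes, and Tmsb10 by its low iNOS-/- unstimulated arrays on 3 probes. Tmsb4x shows opposite differences in WT (-0.29) and iNOS-/- cells (0.54). With the signs reversed, so do probes such as Actn4 ILMN_2673599 (0.42 and -0.28) and Coro1a ILMN_2787257 (2.07 and -0.16).

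Stimulation and genotype were compared in 4 contrasts that share groups, so that no contrast is a repeat of another. Of the 21 member probes, 14 were called higher and 1 lower in WT M1 against WT unstimulated cells at an adjusted p under 0.05, beside 20.8% of all 13868 probes called higher and 14.3% called lower. For iNOS-/- cells the counts were 11 higher and 1 lower, beside 25.2% and 25.1%. Between unstimulated groups they were 10 higher and 5 lower in iNOS-/- cells, beside 16.7% and 15.4%, and between M1 groups 6 and 4, beside 22.9% and 25.3%. For the difference between the 2 stimulated responses they were 2 and 9, beside 19.4% and 22.6%. The lower probes were Tmsb4x for WT stimulation, Actb ILMN_2588055 for iNOS-/- stimulation, the overlapping Actb pair and the 3 Tmsb10 probes between unstimulated groups, and the Actb pair and Actn4 ILMN_2672767 and ILMN_2673599 between M1 groups. Tmsb4x and Tmsb10 ILMN_3067068 were the 2 with the higher response in iNOS-/- cells. The members were selected on these contrasts, and nothing is read from these counts. The median member difference was 0.84 for WT stimulation, 0.36 for iNOS-/- stimulation, 0.25 between unstimulated groups and -0.0033 between M1 groups, and the medians of all probes were 0.089, 0.0039, 0 and -0.032.

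**Figure D4:**
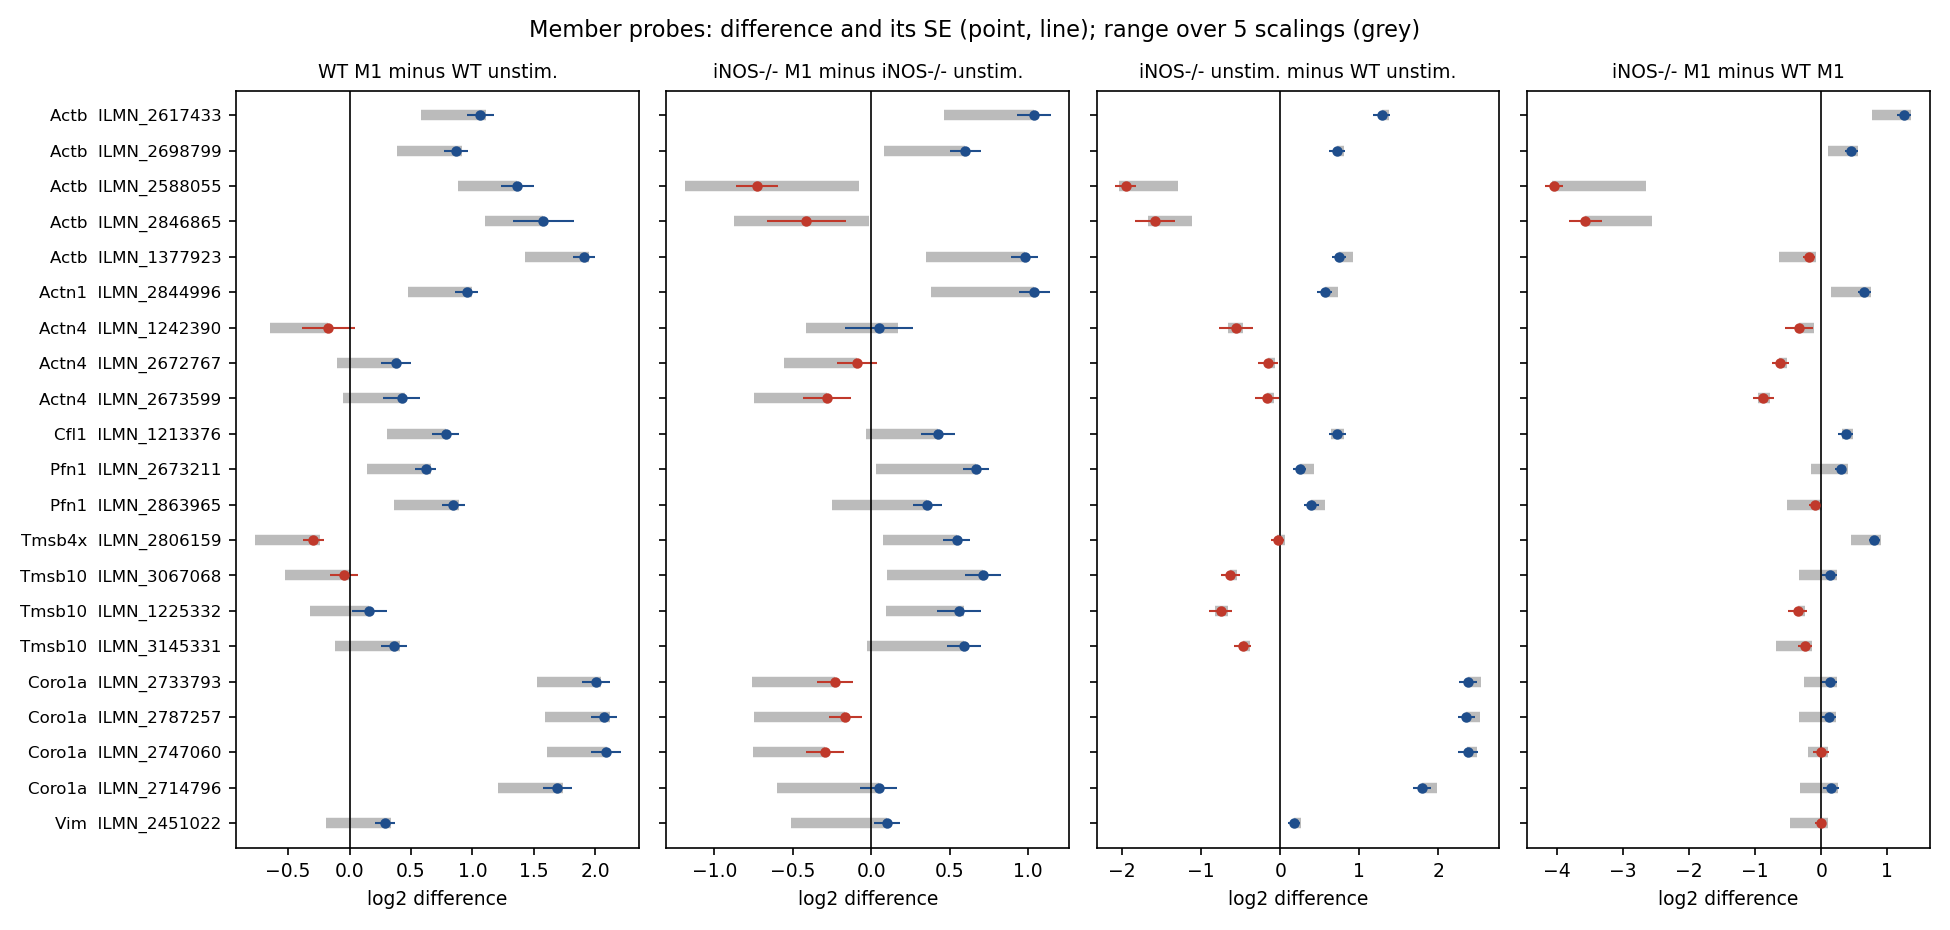
Log2 difference (horizontal axis) of each of the 21 member probes in 4 contrasts, as a point with its SE after rank-invariant scaling, and the range over 5 scalings as a grey bar. Between unstimulated groups the bar of Tmsb4x alone crosses 0, and those of Coro1a stay above it, up to 2.54, while in each of the other contrasts several bars cross 0.

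Other genes of the actin cytoskeleton were taken from 10 lists of 122 genes. The lists were drawn up from general knowledge, but with earlier results of these data known, so their counts are given as a description. Of the 122 genes, 111 were on the array and 96 passed the filter, each read by its brightest probe. They were tested with limma and Benjamini-Hochberg adjustment over all 13868 probes. In WT M1 against WT unstimulated cells 32 rose and 10 fell, that is 33.3% and 10.4% beside 20.8% and 14.3% of all probes, with a median difference of 0.23 against 0.089 for all probes. With 5 genes at their bounds, because they were undetected in a group, that median was also 0.23. In iNOS-/- cells 34 rose and 20 fell, that is 35.4% and 20.8% beside 25.2% and 25.1%. After neqc 23 rose and 33 fell, after quantile normalization 22 and 31, and without scaling 20 and 32. The balance of the lists there depended on scaling, and so did that of all probes. Of all probes called, 50.1% were higher after rank-invariant scaling, 43.3% with neqc, 41.9% with quantile normalization and 25.7% without scaling. Without scaling WT cells gave 18 and 31, where 22.5% of all probes called were higher.

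Counts of single lists below stand beside 20.8% of all probes called higher and 14.3% called lower in WT stimulation. In iNOS-/- stimulation these shares were 25.2% and 25.1%. Crosslinkers and bundlers, which shape filaments into cables and protrusions, were tested for 14 genes. In WT cells 9 rose and 1, the bundler Pls3, fell by 1.27 (limma adjusted p = 0.0033). The filopodial bundler Fscn1 measured 2.92 and 3.76 in WT unstimulated, 9.18 and 9.18 in WT M1, 7.39 and 7.47 in iNOS-/- unstimulated and 10.54 and 10.47 in iNOS-/- M1 cells. It rose by 5.84 ± 0.27 in WT (limma adjusted p = 0.00014) and by 3.07 ± 0.27 in iNOS-/- cells (limma adjusted p = 0.00054), with 4.46 to 5.84 for the first over the 5 scalings. Marcksl1, whose product binds filaments at the membrane, had deposited intensities, before scaling, of 145 and 161, 1191 and 995, 553 and 601, and 3727 and 2783. It rose by 3.31 ± 0.13 in WT and by 2.94 ± 0.13 in iNOS-/- cells (limma adjusted p = 8.9e-05 and 7.1e-05). In iNOS-/- cells 9 of the 14 rose and 3 fell, namely Coro1c, Coro2a and Coro7, all coronins, although the call of Coro7 was lost without any single array but one, and after neqc or quantile normalization 6 rose and 5 fell.

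Among proteins of monomer binding and filament turnover, 5 of 19 rose and 1 fell in WT cells. Risers were Cap1, Capza1, Limk2, Twf2 and Scin, and the one that fell was Pfn2. Scin, which encodes the severing protein scinderin, measured 2.19 and 3.01 in WT unstimulated, detected on 1 of the 2 arrays, 7.51 and 7.46 in WT M1, 8.88 and 8.88 in iNOS-/- unstimulated and 10.88 and 10.88 in iNOS-/- M1 cells. It rose by 4.88 ± 0.26 in WT cells (limma adjusted p = 0.00022) and by 2.00 ± 0.26 in iNOS-/- cells (limma adjusted p = 0.0021). Near the floor the size depended on scaling, and the rise in WT cells ranged from 3.02 to 4.88 over the 5 scalings. Pfn2, the profilin related to Pfn1, measured 6.53 and 6.53, 4.20 and 3.73, 4.33 and 4.45, and 3.19 and 3.79. Unlike both Pfn1 probes it was highest in WT unstimulated cells, and it fell by 2.56 ± 0.25 in WT cells (limma adjusted p = 0.0016), with -3.04 to -1.91 over the 5 scalings.

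Rhob and Rhoc went opposite ways in the genotypes. Rhob measured 10.42 and 10.81 in WT unstimulated, 9.27 and 9.02 in WT M1, 8.57 and 8.58 in iNOS-/- unstimulated and 9.91 and 9.75 in iNOS-/- M1 cells, and Rhoc had deposited intensities, before scaling, of 581 and 563, 178 and 158, 95.7 and 105, and 185 and 187. Both fell in WT cells, by 1.47 ± 0.17 and 1.29 ± 0.09 (limma adjusted p = 0.0026 and 0.00052). Both rose in iNOS-/- cells, by 1.25 and 1.35 (limma adjusted p = 0.0023 and 0.00022). The limma test of the difference between the genotypes' responses gave 2.72 ± 0.23 for Rhob and 2.64 ± 0.12 for Rhoc (adjusted p = 0.001 and 0.00025). Both differences passed the test under each of the 5 scalings and with each array left out.

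Formins and Ena/VASP proteins elongate unbranched filaments. In WT cells 5 of 10 rose, namely Diap1, Diap3, Fhod1, Vasp and Fmnl1, and Evl fell. Fmnl1, the leukocyte formin, measured 2.83 and 3.32 in WT unstimulated, 5.72 and 5.47 in WT M1, 4.62 and 4.18 in iNOS-/- unstimulated and 4.53 and 4.50 in iNOS-/- M1 cells. Its response was smaller in iNOS-/- cells (-2.40 ± 0.32, limma adjusted p = 0.0037), and this difference ranged from -2.40 to -1.11 over the 5 scalings. Fmnl3 fell in iNOS-/- cells by 1.56 ± 0.17 (limma adjusted p = 0.0012). Of 9 linkers between filaments and membrane or adhesion sites, Fermt3, Ilk, Msn, Parvg, Pxn and Zyx rose in WT cells in the limma test, by 0.41 to 1.43, and 0 fell, also at an unadjusted p under 0.05.

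Among genes of branched nucleation by the Arp2/3 complex and its activators, 2 of 18 were higher in WT M1 cells, Arpc4 and Hcls1. Abi1, Wasl and Wipf1, that is 3, were lower. Of 12 tropomyosins and myosins, Myh9, Myo1g and Tpm3 rose and Myo5a fell there. Beside 20.8% of all probes called higher and 14.3% called lower, nothing is read from the counts of these lists. Srf, the transcription factor that drives many actin genes, and its actin-sensing coactivators Mkl1 and Mkl2 passed the limma test in 0 of the 5 comparisons after rank-invariant scaling. At an unadjusted p under 0.05 the limma test held 3 differences, for Mkl1 in WT stimulation and for Mkl1 and Srf between unstimulated groups. Under other scalings 1 or more of the genes passed in 3 comparisons.

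**Figure D5:**
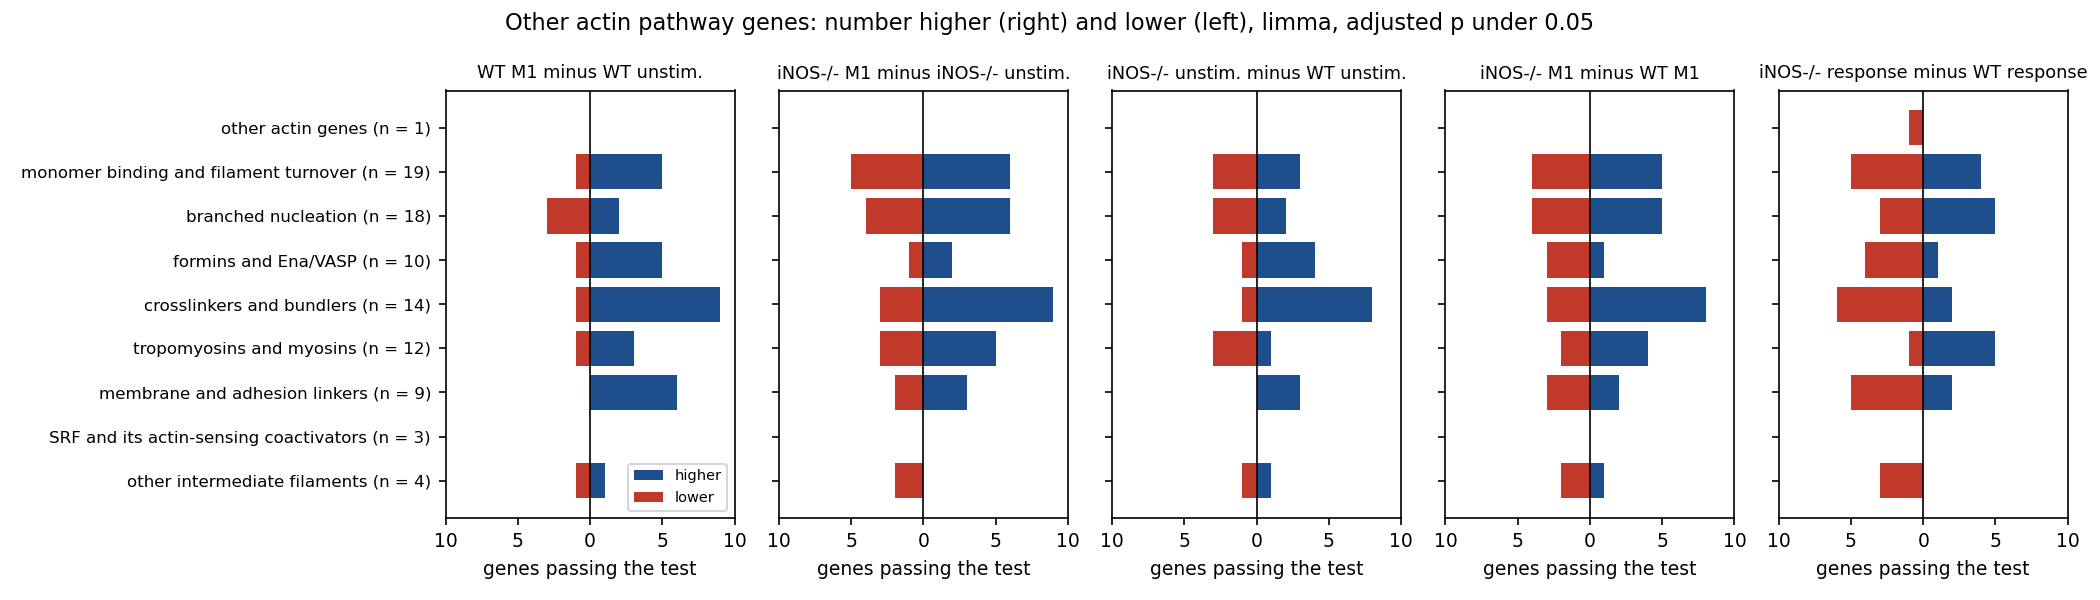
Number of genes (horizontal axis) of 9 of the 10 lists (rows, with the number tested) that passed the limma test as higher (right) or lower (left), in 4 contrasts and in the difference between the responses of the genotypes. Crosslinkers and bundlers show 9 higher and 1 lower of 14 in WT M1 against WT unstimulated cells, while SRF and its coactivators show none. Mkl1 and Mkl2 were each undetected in a group.

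Between unstimulated groups 23 of the 96 genes were higher and 14 lower in iNOS-/- cells, that is 24.0% and 14.6% beside 16.7% and 15.4% of all probes. Scin was higher by 6.28 ± 0.26, Fscn1 by 4.09 ± 0.27 and Aif1 by 3.18 ± 0.09 (limma adjusted p = 0.00014, 0.00053 and 4.7e-05), and the differences of Scin and Fscn1 ranged from 4.49 to 6.37 and from 2.79 to 4.18 over the 5 scalings. Aif1, whose product bundles actin in macrophages, measured 7.18 and 7.25 in WT unstimulated, 9.71 and 9.68 in WT M1, 10.43 and 10.35 in iNOS-/- unstimulated and 10.65 and 10.77 in iNOS-/- M1 cells. As for Coro1a, WT unstimulated cells were set apart at the bottom, but for Aif1 the other 3 groups were also separate, with iNOS-/- M1 cells highest. Rhoc was lower by -2.60 ± 0.09, Pfn2 by -2.14 ± 0.25 and Rhob by -2.04 ± 0.17 (limma adjusted p = 8.5e-05, 0.0029 and 0.00096). The total of 37 went down to 24 without the first and to 22 without the second WT unstimulated array, where the array left alone was assumed to vary like the other groups.

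Between the M1 groups 28 genes were higher and 22 lower in iNOS-/- cells, that is 29.2% and 22.9% beside 22.9% and 25.3% of all probes. Scin was higher by 3.39 ± 0.26, Marcksl1 by 1.46 ± 0.13 and Myo1g, a myosin of hematopoietic cells, by 1.42 ± 0.08 (limma adjusted p = 0.0005, 0.00078 and 0.00027), with 0.91 to 1.53 for Myo1g over the 5 scalings. Coro1c measured 10.86 and 10.95 in WT unstimulated, 10.90 and 11.06 in WT M1, 10.60 and 10.78 in iNOS-/- unstimulated and 9.49 and 9.50 in iNOS-/- M1 cells, and was lower there by -1.48 ± 0.11 (limma adjusted p = 0.00044). Svil, which encodes supervillin, was lower by -1.97 ± 0.34 (limma adjusted p = 0.0067; -1.97 to -0.74 over the 5 scalings) and was detected on 1 of the 2 iNOS-/- M1 arrays. Coro7 was detected on neither of them and was at least 2.68-fold lower than in WT M1 and at least 2.04-fold lower than in iNOS-/- unstimulated cells (limma adjusted p = 0.029 and 0.043). Leaving out each array in turn lost the first of these calls in 4 of 8 fits, without either WT M1 or either iNOS-/- unstimulated array (adjusted p up to 0.107). The second was lost in 7 of 8 fits, all but that without the second iNOS-/- M1 array (adjusted p up to 0.146). After neqc the balance between the M1 groups was 25 higher and 36 lower, and after quantile normalization 19 and 33. Of all probes called between the M1 groups, 48.9% were higher with neqc and 46.2% with quantile normalization.

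Markers of other cell types moved with the groups. All 7 macrophage markers tested were detected, with a summed scaled intensity of 22014 to 31049 per array, to which Lyz2 gave the most at log2 intensities of 13.82 to 14.46. Csf1r was 11.73 and 11.76 in WT unstimulated and 10.28 and 10.00 in iNOS-/- M1 cells, and Cd68 was 12.17 and 12.22 against 10.19 and 10.35. Fcgr1 was also lower in the latter, at 7.54 and 7.39 against 7.21 and 7.09. The other macrophage markers were higher there. Emr1 was 11.38 and 11.29 against 11.60 and 11.67, and Mertk 9.20 and 9.16 against 9.83 and 9.96. Lyz2 was 13.93 and 13.99 against 14.31 and 14.39, and Itgam 7.17 and 7.07 against 7.24 and 7.18. Of 7 dendritic cell markers 6 were detected, with sums of 765 and 755 in WT unstimulated, 11641 and 12120 in WT M1, 11163 and 10166 in iNOS-/- unstimulated and 21632 and 22091 in iNOS-/- M1 cells, and Flt3 was not detected on any array. Most of this sum was Ccl17, at 9.05 and 9.12 in WT unstimulated and 14.21 and 14.26 in iNOS-/- M1 cells. The defining marker Itgax lay between 7.41 and 8.08 on all arrays, and Cd209a was detected on 4 arrays and was at 0 in iNOS-/- M1 cells. Like this sum, Fscn1, Scin, Aif1 and the Actb probes at bases 14 and 1173 were lowest in WT unstimulated and highest in iNOS-/- M1 cells. So were Marcksl1, Myo1g, Actn1, Cfl1 and Pfn1 ILMN_2673211, and so was the sum of the granulocyte markers below. The part of dendritic cells or granulocytes in the values of these genes was not tested. Coro1a was also lowest in WT unstimulated cells but was not higher in iNOS-/- M1 than in iNOS-/- unstimulated cells on 3 of its 4 probes. Sums of 5 dividing cell markers were 504 and 551 in WT unstimulated, 1721 and 1823 in WT M1, 2030 and 2032 in iNOS-/- unstimulated and 605 and 606 in iNOS-/- M1 cells. Of 6 granulocyte markers 5 were detected, with sums of 939 to 954 in WT unstimulated and 3789 to 3910 in iNOS-/- M1 cells. Of 7 fibroblast markers 1 was detected, and of 3 lymphocyte markers 0 were. In such mixed RNA fewer cells of a type and less RNA per cell cannot be told apart.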

How the data were processed

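RNA of 8 samples, 2 per group by the labels, was hybridised to Illumina arrays, named MouseRef-8 for the series and MouseWG-8 in the methods. The authors deposited bead-averaged intensity values from GenomeStudio, not normalized between arrays, and a detection p-value for each probe and array. The header names no background subtraction, yet undetected probes lie around 0, so none was subtracted here. The methods give background subtraction, rank-invariant normalization, 1 for negative values, log2 and limma. Arrays were here brought to their mean with 1 factor each (0.813 to 1.30), fitted robustly (rlm of MASS 7.3.60.0.1, no intercept) on probes whose relative rank moved by less than 0.05 and lay between 0.5 and 0.9. Scaled values under 1 were set to 1 and the scaled intensity was taken to log2. Probes with detection p under 0.05 on at least 2 arrays entered a limma 3.58.1 (R 4.3.3) fit of the 4 groups on 8 arrays, checked on simulated data, with Benjamini-Hochberg adjustment over 13868 probes and a threshold of 0.05. SE is that of the fit.

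The members and the gene lists were chosen with earlier results of these data known. Named were all member probes and, in each comparison, the 3 largest rises and falls among other actin genes that passed, were detected on both arrays of the higher group and did not overlap (for the difference of responses, detected on all 8 arrays), genes that set a count of 5 or fewer, and the 3 probes nearest to each Actb probe. For a probe undetected on both arrays of a group, a bound is given against the higher of its own value and the lowest detected value of each array. The number of arrays limits the precision. The counts of 1 gene list are not reported here. Value columns without a sample numbered 0.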

Additional observations from a re-analysis of the deposited data

Results flagged for a closer look

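After rank-invariant scaling the following probes moved in opposite directions in WT and iNOS-/- cells on both arrays of each group, or differed in their response by the limma test. For the member probes the difference of the responses (iNOS-/- minus WT, log2 scale) is given as a description, without a p-value. It was -2.09 for Actb ILMN_2588055, which measured 118.0 and 111.8 in deposited intensity on the WT M1 arrays and 7.0 and 8.0 on the iNOS-/- M1 arrays. With a floor of 16 the stimulated difference of this Actb probe in iNOS-/- cells was 0. The difference of the responses was -0.71 for Actn4 ILMN_2673599, whose WT difference turned to -0.056 without scaling, and 0.84 for Tmsb4x ILMN_2806159. For 3 of the 4 Coro1a probes it was -2.24 (ILMN_2733793), -2.24 (ILMN_2787257) and -2.38 (ILMN_2747060). Their stimulated differences in iNOS-/- cells were small, at -0.23 ± 0.11, -0.16 ± 0.10 and -0.29 ± 0.12.

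Among the other actin genes the difference was 2.72 ± 0.23 for Rhob, 2.64 ± 0.12 for Rhoc and 1.66 ± 0.35 for Pfn2 (limma adjusted p = 0.001, 0.00025 and 0.016). It was -2.77 ± 0.38 for Fscn1, -2.40 ± 0.32 for Fmnl1 and -2.16 ± 0.12 for Aif1 (limma adjusted p = 0.004, 0.0037 and 0.00039). The direction held under all 5 scalings for these 6 genes, while the difference ranged from -2.40 to -1.11 for Fmnl1, from -2.96 to -1.82 for Fscn1 and from 1.48 to 2.17 for Pfn2. The Pfn2 difference had an adjusted p of 0.0531 without the first iNOS-/- unstimulated array.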

How the results depend on the processing

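Directions of member probes that passed the threshold turned, or in 1 case were lost at 0, under 10 combinations of probe, contrast and setting. In iNOS-/- stimulation Pfn1 ILMN_2863965 gave -0.247 with neqc, -0.249 with quantile normalization and -0.105 without scaling, Tmsb10 ILMN_3145331 gave -0.0273 and -0.0274 with neqc and quantile normalization, Cfl1 -0.0358 without scaling and Actb ILMN_2588055 0 with a floor of 16. Between M1 groups Pfn1 ILMN_2673211 gave -0.156 with neqc and -0.157 with quantile normalization, and in WT stimulation Vim gave -0.193 without scaling. For Actb ILMN_2588055 every iNOS-/- value lay at the floor of 16, and for the other probes the cause was not tested. Relative to the median of all probes under the same setting, the unscaled values were 0.35 for Pfn1, 0.42 for Cfl1 and 0.19 for Vim. That median was -0.38 and -0.45 for WT and iNOS-/- stimulation and 0.071 between M1 groups without scaling, -0.062 and -0.13 for stimulation with quantile normalization, -0.035 for WT stimulation with neqc, and -0.096, 0.20, 0.24, -0.12 and 0.33 for WT stimulation, iNOS-/- stimulation, M1 groups, unstimulated groups and the difference of responses with an intercept, a setting chosen after seeing the data. The share of called probes that were higher was 59.3% for WT stimulation, but 44.4% with neqc, 47.4% with quantile normalization, 22.5% without scaling and 49.0% with the intercept. For iNOS-/- stimulation it was 50.1% and 25.7% without scaling, and with the intercept it went from 47.5% to 58.4% for M1 groups and from 46.1% to 59.7% for the difference of responses.

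Counts of member probes called went from 15 to 8 (WT stimulation), 12 to 2 (iNOS-/- stimulation), 10 to 3 (M1 groups), 15 to 7 (unstimulated groups) and 11 to 6 (difference of responses) when a 2-fold change was also asked for, and those of other actin genes from 42 to 19, 54 to 25, 50 to 18, 37 to 16 and 50 to 28. Those of all 13868 probes went from 4869 to 2102, 6975 to 3995, 6687 to 3438, 4459 to 1956 and 5829 to 3845. With neqc 17 member probes were called for the difference of responses, beside 7078 of all probes. With only the arrays compared 6 were called between M1 groups, beside 5251 of all probes. That fit leaves nothing out for the difference of responses. Leaving out each array in turn gave 6 to 9 member probes between M1 groups (6 without the first WT M1 array) and 22 to 35 other actin genes between unstimulated groups. The other alternatives kept each of these counts of member probes and of other actin genes within 1.5 times.

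Deviations of equally numbered arrays correlated at -0.034 to 0.027 over 9687 probes, so no pairing by replicate number was seen in the values. Whether equally numbered arrays share a mouse, culture or chip cannot be told from this, and the labels do not say. With the replicate block 39 other actin genes were called in WT stimulation, 47 in iNOS-/- stimulation, 48 between M1 groups, 33 between unstimulated groups and 48 for the difference of responses. All probes called with the block numbered 4296, 6612, 6276, 3902 and 5326 in the same order.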

Other observations

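Among 4 other genes of intermediate filaments and their linkers, Lmnb1, which encodes lamin B1, was higher by 2.00 in WT M1 than in WT unstimulated cells and by 2.68 in unstimulated iNOS-/- than in unstimulated WT cells (limma adjusted p = 0.00033 and 0.00016). Lmna, which encodes lamins A and C, was lower in iNOS-/- M1 than in WT M1 cells by -1.45 (limma adjusted p = 0.00043) and lower after stimulation in both genotypes, by -0.50 and -1.15 (limma adjusted p = 0.018 and 0.00061). Vim moved by no more than 0.29 in any of the 4 contrasts after rank-invariant scaling.

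The probes whose intensities ran most closely with each Actb probe over the 8 arrays, among 9682 probes of other genes detected on all of them, differed between the Actb probes. They were Acad9, Cytip and Tyk2 for ILMN_2617433 (Pearson's r of 0.994 to 0.995), Sema4a, Psmb2 and Gars for ILMN_2698799 (0.994 to 0.996), and 1110012D08Rik, Noc4l and Csrp2 for ILMN_1377923 (0.991 to 0.994). For the overlapping pair they were Scd1, Ykt6 and Txndc11 (0.976 to 0.981) and Ykt6, Mat2a and 1110039B18Rik (0.962 to 0.988). All points share 4 groups of 2 arrays, and these values are a description.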
